A study of Mus musculus with 15 samples.

Results

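The genes described here carry glucose to pyruvate and pass pyruvate to lactate or into the mitochondrion. They are the 10 rows of the expression table named Ldha, Ldhb, Ldhc, Hk1, Hk2, Gpi1, Pgk1, Pkm, Pdha1 and Slc16a1, of 53023 genes in all. They were picked by name, with earlier results of these data known. Of the 10, 8 averaged 1 FPKM or more across libraries and entered the tests. FPKM is a read level corrected for the length of the gene and the depth of the library. The filter used the mean over all 6 libraries and so did not favour any group.

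The study asked what happens to the transcriptome of the mouse 2-cell embryo when filamentous actin in the nucleus is disturbed. Its tool was injected mRNA of the actin mutant R62D, which cannot form filaments, fused to an HA epitope and a signal that brings it into the nucleus. The 6 libraries were made from pools of 5 embryos each, all of the outbred ICR strain, fertilised in vitro and taken 32 hours after insemination, and injected embryos had received mRNA by piezo manipulator at 2 hours. They form 3 pairs whose labels contradict each other. Pair C carries a title of non-injected control and an annotation of actinR62D-HA-NLS mRNA. Pair B carries a title of R62D and an annotation of actinWT-HA-NLS mRNA. Pair A carries a title of Wt and an annotation of Non-injected. Libraries are named by pair letter and by the replicate number of the title (C1, C2, B1, B2, A1, A2), and each comparison is given with both readings. The labels give no sex for the embryos of a pool, and in such bulk RNA fewer cells and less RNA per cell cannot be told apart.

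Mouse embryos of the first cleavages live on pyruvate and lactate and make little use of glucose until later in preimplantation development. Lactate dehydrogenase, a tetramer, interconverts pyruvate and lactate, and its B subunit, which favours the oxidation of lactate, is known as the main form of the mouse oocyte and early embryo. Pyruvate reaches mitochondria through the mitochondrial pyruvate carrier and is turned into acetyl-CoA by the pyruvate dehydrogenase complex, while hexokinase, phosphofructokinase and pyruvate kinase catalyse the regulated steps of glycolysis.

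Depth was 907210 to 1555431 assigned reads per library, as recovered from the table. All 6 genes of the 2-cell stage that were used as markers were present (1286 to 3789 reads in sum). Obox5, with 596 to 2400 reads, held the most of them in every library except B2. Libraries C2 and A2 stood apart from the other 4 on principal component 1 (28.7% of the variance, scores 49.7 and 49.3 against -32.7 to -11.1). Both also had the lowest summed reads of 6 oocyte and maternal markers. These were 580 in C2 and 746 in A2, against 1349 to 1855 in the other libraries. Corrected for depth and length, the sums were 514 FPKM in C2 and 505 in A2, against 860 to 1091. Much of these sums came from Oosp1, at 299 to 865 FPKM. Oosp1, Gdf9 and Bmp15 had their lowest values in C2 and A2, and Zar1 had at most 7.5 reads. Zp3 of this list went the other way in A2, with its highest value of 142 FPKM. In C2, Zp3 (84.1 FPKM) was above C1 (69.0) and B1 (64.8), and Nlrp5 (4.66) was above B1 (3.83). Summed reads of the 2-cell markers, not corrected for depth, were also lowest in these libraries, 1560 in C2 and 1286 in A2. Corrected for depth and length, this did not hold for C2. The sums were then 532 FPKM in A2, 770 in A1 and 799 in C2, against 881 to 1123 in the other libraries. Cumulus and granulosa markers had 1 to 11 reads in sum over 12 genes, 5 of which were at 0 in all libraries, among them Fshr, Lhcgr and Foxl2. Blood markers had 6 to 73 reads, nearly all on alpha-globin genes, with both beta-globin genes at 0.

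Ldhb, which encodes the B subunit of lactate dehydrogenase, had the highest level of the 10 genes in every library. It lies on the minus strand of chr6:142490249-142507957 (mm10). Ldhb measured 234 FPKM in C1, 73.4 in C2, 113 in B1, 119 in B2, 227 in A1 and 107 in A2, on 104.5 to 572 reads. Pairs C and A each held a high and a low library, pair B lay between them, and the lowest 2 values belonged to C2 and A2, the libraries set apart on principal component 1. The part of that split in the Ldhb values was not tested. Its mean of 145.5 FPKM stood above 95.57% of all genes tested.

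Ldhc encodes the C subunit of lactate dehydrogenase, known from male germ cells, and was the next in level (chr7:46861203-46878142, plus strand). It measured 35.6 FPKM in C1, 32.1 in C2, 46.0 in B1, 28.6 in B2, 39.9 in A1 and 34.0 in A2, on 46 to 92 reads. The values of the 3 pairs overlapped, and the highest library was only 1.61 times the lowest. The sperm and spermatid markers, a list that does not hold Ldhc, were at or near 0 apart from Odf2. Of 14 such genes, Prm1, Tnp2, Odf1, Smcp, Prm3 and Spata18 had 0 reads in all 6 libraries, and Prm2, Tnp1 and Akap4 had at most 1 read. The summed 19 to 90 reads of that list lay mostly on Odf2 (17 to 87 reads), which encodes a sperm tail and centrosome protein.

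Ldha encodes the A subunit, which favours the reduction of pyruvate to lactate (chr7:46841475-46855627, plus strand, next to Ldhc). It measured 9.52 FPKM in C1, 1.83 in C2, 8.40 in B1, 18.9 in B2, 7.80 in A1 and 4.86 in A2, on 5.5 to 74.8 reads. Both B libraries were above both A libraries, while C1 lay between the B libraries and C2 was the lowest. The highest value was 10.3 times the lowest, the widest range of the 8 genes tested.

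The coding sequences of the 3 subunits are related, and the stretch in which they are most alike shows how their reads are kept apart. It is a window of 60 bases in exon 5 of each gene, found by aligning 1 coding transcript per gene (GENCODE, GRCm38). Capitals mark the 18 positions at which the 3 sequences do not all have the same base.
Ldhb, chr6:142495633-142495692, minus strand: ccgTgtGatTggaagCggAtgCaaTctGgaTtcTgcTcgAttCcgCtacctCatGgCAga
Ldha, chr7:46850934-46850993, plus strand: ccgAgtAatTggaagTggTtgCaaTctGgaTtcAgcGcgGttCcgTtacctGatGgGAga
Ldhc, chr7:46872961-46873020, plus strand: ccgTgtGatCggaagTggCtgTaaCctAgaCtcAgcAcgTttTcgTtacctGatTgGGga
Over the whole coding sequence Ldhb and Ldha were identical at 71.5% of 996 aligned bases, Ldhb and Ldhc at 64.7% of 993, and Ldha and Ldhc at 73.2% of 996. No stretch of 50 bases, nor of 25 bases, the lengths of the paired reads, was common to any pair of these coding sequences, and the longest identical runs were 18 to 20 bases.

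Of the FPKM summed over the 3 genes in a library, Ldhb held most. Its share was 83.8% in C1, 68.4% in C2, 67.4% in B1, 71.4% in B2, 82.6% in A1 and 73.4% in A2. Pair means were 76.1 ± 10.9% in C, 69.4 ± 2.82% in B and 78.0 ± 6.53% in A (SD, n = 2 each), so the pairs differed by less than the spread within C. Ldhc held 12.7% to 29.9% and Ldha 1.71% to 11.4%, the highest Ldha share being that of B2. The shares rest on the lengths in the table, which for Ldha is 3310 bases where the coding transcript has 1588. With the length of 1 coding transcript for each gene, a choice made after seeing the data, Ldhb held 65.8% to 82.2%, Ldhc at most 28.7% and Ldha 2.96% to 18.3%.

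**Figure D1:**
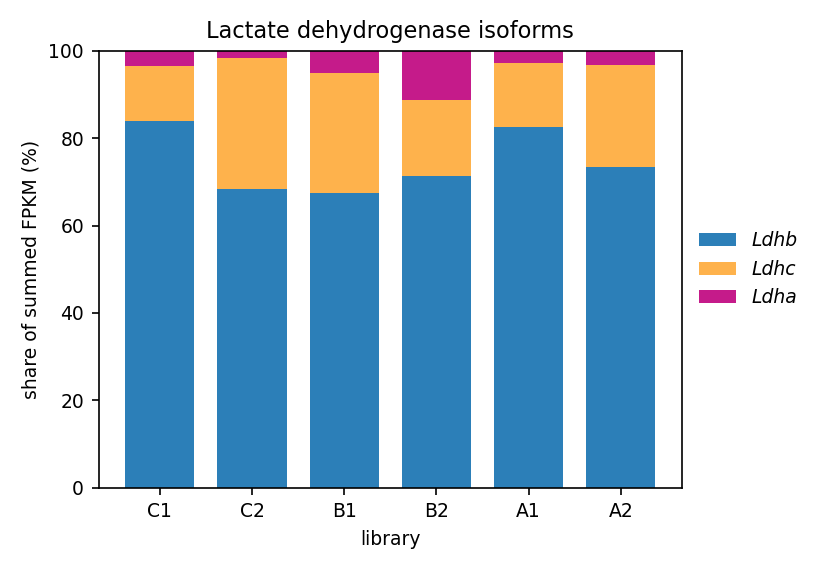
Share of Ldhb, Ldhc and Ldha in their summed FPKM (percent, vertical axis) in each library, pairs C, B and A from left to right. Ldhb holds 67.4% to 83.8% in all 6 libraries.

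The promoters of the most abundant pair of genes were read for CG dinucleotides, since promoters rich in CG are typical of housekeeping genes. Sequences are from RefSeq (GRCm38.p6), span 300 bases around the annotated start, most of them before it, and have CG in capitals.
Ldhb, chr6:142507908-142508207, minus strand: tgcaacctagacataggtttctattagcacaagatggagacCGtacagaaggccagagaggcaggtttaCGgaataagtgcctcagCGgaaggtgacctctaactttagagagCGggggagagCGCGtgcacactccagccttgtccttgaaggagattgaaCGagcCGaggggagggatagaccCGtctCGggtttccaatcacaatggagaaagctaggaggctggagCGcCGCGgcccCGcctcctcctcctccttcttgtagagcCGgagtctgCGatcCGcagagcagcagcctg
Ldhc, chr7:46861013-46861312, plus strand: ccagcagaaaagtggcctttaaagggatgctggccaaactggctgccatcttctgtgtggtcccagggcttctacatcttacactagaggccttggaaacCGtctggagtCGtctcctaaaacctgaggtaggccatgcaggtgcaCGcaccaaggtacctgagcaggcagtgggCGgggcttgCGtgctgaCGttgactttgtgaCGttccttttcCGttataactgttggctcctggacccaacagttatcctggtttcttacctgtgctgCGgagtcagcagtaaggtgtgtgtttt
The Ldhb window held 17 CG and the printed Ldhc window 9, against a median of 7 over 32851 promoters of the same length. These counts were above those of 68.6% and 54.2% of the promoters, so neither window was among the richest. Of the 10 genes Slc16a1 had the most, 42 CG. The other Ldhc promoter in the table (chr7:46861237-46861536) held 3. The 10 genes had 14 promoters in that table. The letters ACGTG, a core of the hypoxia response element, were searched on both strands, and a CACGTG match, which overlaps itself on the other strand, counted once. They were found in 6 of the 14 windows, 1 each for Slc16a1, Hk2, Ldha, Pkm, Hk1 and Pgk1, and in 19.62% of all promoters. These matches are letters in a window and nothing more.

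Transport and mitochondrial use of pyruvate are represented by Slc16a1 and Pdha1. Slc16a1 encodes the monocarboxylate transporter MCT1, which carries lactate and pyruvate across the plasma membrane (chr3:104638668-104658462, plus strand). It measured 8.13 FPKM in C1, 6.97 in C2, 7.86 in B1, 10.2 in B2, 5.42 in A1 and 12.4 in A2. The A libraries held both the lowest and the highest value, so no pair stood apart. Its relatives Slc16a3 and Slc16a8 had 0 reads in all libraries, and Slc16a7 had at most 8. Bsg and Emb, the chaperones of these transporters, had means of 8.34 and 9.32 FPKM. Mpc1, a subunit of the mitochondrial pyruvate carrier, had the highest mean of the pathway genes at 179.8 FPKM (133 to 233), and Mpc1 and Mpc2 together summed to 175 to 262 FPKM.

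Pdha1 encodes the E1 alpha subunit of pyruvate dehydrogenase (chrX:160122209-160138413, minus strand). It measured 22.2 FPKM in C1, 27.2 in C2, 24.2 in B1, 31.7 in B2, 25.3 in A1 and 15.5 in A2, on 64.5 to 141.5 reads. B2 was highest and A2 lowest, and the 3 pairs overlapped. Pdha1 and Pgk1 are X-linked, and 9 Y-linked genes had 0 reads in sum in B2 and 107 to 311 in each of the other libraries. The part of embryo sex in their values was not tested. Pdhb, the E1 beta subunit, was 2.74 to 4.63 times Pdha1 per length. Its mean was 84.0 ± 17.0 FPKM (SD, n = 6), followed in this list by the kinase Pdk3 (29.8 FPKM), the phosphatase Pdp2 (20.4), Dld (9.30) and Pdhx (7.88). Pdk4 had 0 reads and Pdha2, the testis form, at most 2. An antisense neighbour, Map3k15, overlaps Pdha1 in 461 of its 50-base windows and measured 1.33 to 3.18 FPKM, and without strand, which is not given in the sources used here, such reads cannot be told apart.

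**Figure D2:**
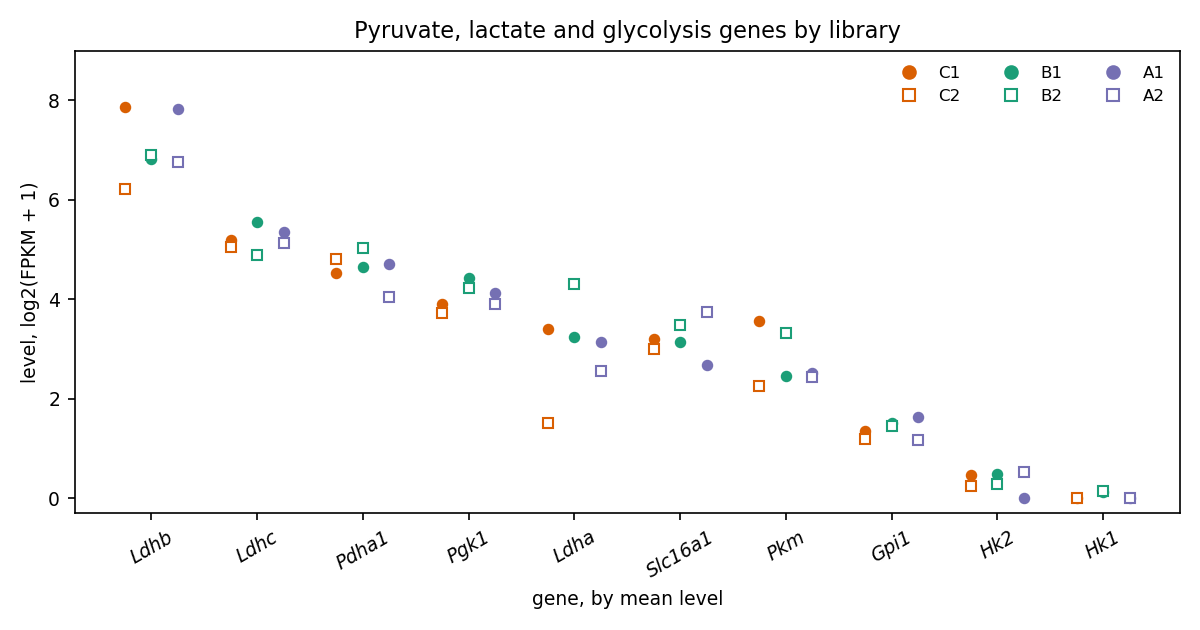
Level of each of the 10 genes as log2(FPKM + 1) on the vertical axis, genes in order of mean level, with 1 point per library and pairs C, B and A from left to right within a gene. Ldhb lies between 73.4 and 234 FPKM and above Ldhc in every library, and Hk1 and Hk2 lie at the bottom.

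Among the glycolysis enzymes, Hk1 and Hk2 were near the limit of detection. Hk2, the inducible hexokinase, measured 0.38 FPKM in C1, 0.18 in C2, 0.40 in B1, 0.21 in B2, 0 in A1 and 0.45 in A2, on at most 3.5 reads (chr6:82725025-82774454, minus strand). Hk1, the widely expressed form, had 1 read in each B library and 0 reads in the other 4 (chr10:62268855-62379908, minus strand), where a count of 0 allows up to 3 reads, or 0.226 to 0.388 FPKM. Neither gene was tested, and no fold is given because the values are at or near this floor. Their relatives Hk3 and Hkdc1 had 0 and at most 2 reads. The 3 phosphofructokinase genes together summed to 0.970 to 2.06 FPKM, against 107 to 279 FPKM for the 3 lactate dehydrogenase genes. The size of this gap rests on the lengths in the table, 13401 bases for Pfkp, 6675 for Pfkl and 2957 for Pfkm, against 1570 for Ldhb. In reads, not corrected for length, Pfkp had at most 15.5, Pfkl 11 and Pfkm 5.5, against 104.5 to 572 for Ldhb.

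Gpi1 encodes glucose-6-phosphate isomerase, the step after hexokinase (chr7:34201330-34230336, minus strand). It measured 1.54 FPKM in C1, 1.28 in C2, 1.84 in B1, 1.75 in B2, 2.09 in A1 and 1.25 in A2, on 7.5 to 15.5 reads. Both C libraries were below both B libraries, by little. Pkm encodes muscle-type pyruvate kinase, the last step of glycolysis (chr9:59656368-59679375, plus strand). It measured 10.8 FPKM in C1, 3.75 in C2, 4.51 in B1, 9.01 in B2, 4.70 in A1 and 4.41 in A2. The A libraries were close to each other while C and B each held a high and a low value. Pklr, the liver and red cell form, had at most 1 read.

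Pgk1 encodes phosphoglycerate kinase, which makes ATP in glycolysis (chrX:106187100-106203699, plus strand). It measured 14.1 FPKM in C1, 12.2 in C2, 20.4 in B1, 17.7 in B2, 16.4 in A1 and 14.1 in A2. Both B libraries lay above the other 4, and A2 lay just below C1. These values cover only part of the reads of this sequence, because the table also lists the processed pseudogene Pgk1-rs7 (chr12:10898986-10900240, minus strand), identical to the Pgk1 transcript over all of its 1255 bases. The first 60 bases of the copy are printed here beside the same stretch of Pgk1 (exon 1), to show that reads from it cannot be assigned. No letter is a capital because they do not differ.
Pgk1, chrX:106187252-106187311, plus strand: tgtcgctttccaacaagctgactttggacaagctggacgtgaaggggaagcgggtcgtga
Pgk1-rs7, chr12:10900181-10900240, minus strand: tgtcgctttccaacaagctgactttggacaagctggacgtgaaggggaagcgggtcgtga
Of the 50-base windows of Pgk1, 53.9% also occur in another gene, and the table counts such reads as fractions. Pgk1-rs7 measured 12.9 FPKM in C1, 10.4 in C2, 18.0 in B1, 16.2 in B2, 15.5 in A1 and 9.03 in A2. Gm5537, another processed copy (chr3:58102996-58104247), measured 11.9 FPKM in C1, 8.65 in C2, 17.5 in B1, 15.4 in B2, 14.5 in A1 and 8.45 in A2. In each of the 3 genes both B libraries were the highest. The 3 genes share reads counted as fractions, so their values are not independent of each other. Counted together at the length of Pgk1, a choice made after seeing the data, they gave 27.9 FPKM in C1, 22.8 in C2, 40.3 in B1, 35.3 in B2, 33.2 in A1 and 23.8 in A2, and 51.6% of these reads stood under Pgk1. Reads of these genes cannot be assigned to 1 of them with certainty.

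Other copies weighed less. Gm5514, a processed copy of Ldhb on chromosome 19 (21938079 to 21938384), shares 339 of the 1615 50-base windows of Ldhb and had 27.5 to 99.5 reads. With those reads Ldhb measured 275 FPKM in C1, 92.7 in C2, 133 in B1, 142 in B2, 260 in A1 and 132 in A2. The order of the libraries was as before, with C1 highest and C2 lowest. Gm6560, a copy of Pkm, had 0.5 to 7 reads. Ldhc, Hk2 and Slc16a1 shared no 50-base window with any other gene of the annotation. The share was 25.8% for Pkm, 15.8% for Gpi1, 12.9% for Pdha1, 9.26% for Ldha and 1.22% for Hk1.

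**Figure D3:**
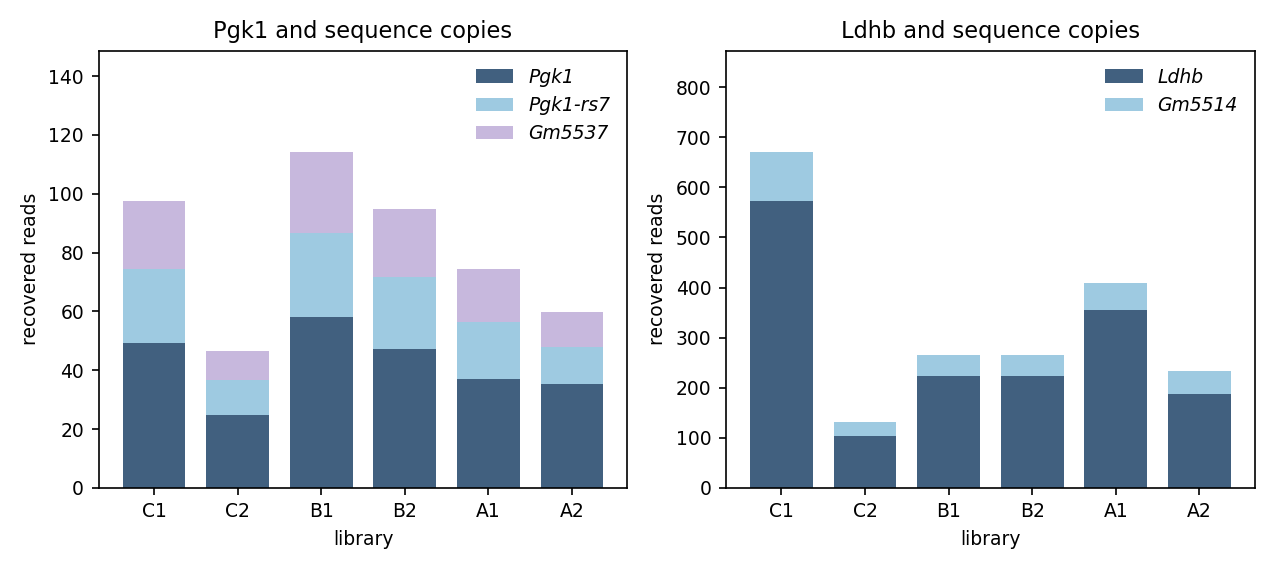
Recovered reads (vertical axis, not corrected for depth) of Pgk1 and its copies Pgk1-rs7 and Gm5537 (left) and of Ldhb and its copy Gm5514 (right), stacked by library. Copies hold a large part of the Pgk1 reads, of which 51.6% stand under Pgk1 itself, and a smaller part of the Ldhb reads.

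In order of mean level the genes ran Ldhb, Ldhc, Pdha1, Pgk1, Ldha, Slc16a1, Pkm, Gpi1, Hk2 and Hk1. The ranges over libraries were apart between Ldhb and Ldhc, between Pkm and Gpi1, and between Gpi1 and Hk2, and the order held in 6 of 6 libraries for each. All other neighbours overlapped, and Ldha was above Slc16a1 in only 4 of 6 libraries.

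Pair C against pair B is, going by the annotation, R62D against wild-type actin. Going by the titles, it is no injection against R62D. None of the 8 genes tested passed (limma, adjusted p = 1 for each), beside 0% of all 13443 genes, and 0 of 8 had an unadjusted p below 0.05, beside 3.85% of all genes. The coefficient was below 0 for 6 of the 8, with a median of -0.19, beside 0 for all genes. Ldha had the largest, a log2 fold change of -1.33 ± 0.68 (SE), with a 95% interval of -2.92 to 0.27. It was -2.27 without C1 and -0.38 without C2. Pgk1 stood at -0.51 ± 0.32, and at -0.56 with its copies. Pgk1-rs7, which shares reads with Pgk1 and is no separate measurement, stood at -0.52 ± 0.37. For Ldhb the value was 0.18 with an interval of -1.18 to 1.54, and for Ldhc -0.10 with an interval of -0.89 to 0.69. Both C libraries were below both B libraries for Pgk1 and Gpi1, 2 of 8 genes, where 14.8% of all genes did the same. The reverse held for 0 of the 8 and for 15.5% of all genes, and either for 30.2%. A fit of the recovered reads by limma-voom called 0 of the 8 in each of the 3 comparisons.

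Pair C against pair A is, going by the annotation, R62D against no injection. Going by the titles, it is no injection against wild-type actin. None of the 8 passed (limma, adjusted p = 1 for each), beside 0% of all genes, and 0 of 8 had an unadjusted p below 0.05, beside 3.01%. The coefficient was below 0 for 6 of 8, with a median of -0.13, beside 0.07 for all genes. Pkm had the largest, 0.43 ± 0.54 (SE), followed by Ldha at -0.40, Pdha1 at 0.30 and Ldhb at -0.25 with an interval of -1.60 to 1.11. The pairs overlapped for all 8 genes, where 26.9% of all genes did not, 16.5% being higher and 10.4% lower in C.

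Pair B against pair A is, going by the annotation, wild-type actin against no injection. Going by the titles, it is R62D against wild-type actin. None of the 8 passed (limma, adjusted p = 0.991 to 1), beside 0% of all genes, and 0 of 8 had an unadjusted p below 0.05, beside 4.57%. The coefficient was above 0 for 6 of 8, with a median of 0.20, beside 0.07 for all genes. Ldha stood at 0.93 ± 0.68 (SE) with an interval of -0.66 to 2.52, Pdha1 at 0.47 ± 0.36 and Ldhb at -0.43 ± 0.58. Ldha was 0.39 without B2 and 1.47 without B1, and Pdha1 was 0.13 without A2 and 0.80 without A1. Both B libraries were above both A libraries for Ldha and Pgk1, 2 of 8 genes, where 18.8% of all genes did the same. The reverse held for 0 of the 8 and for 12.8% of all genes, and either for 31.7%. The 3 comparisons share pairs, so their values are not independent of each other.

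**Figure D4:**
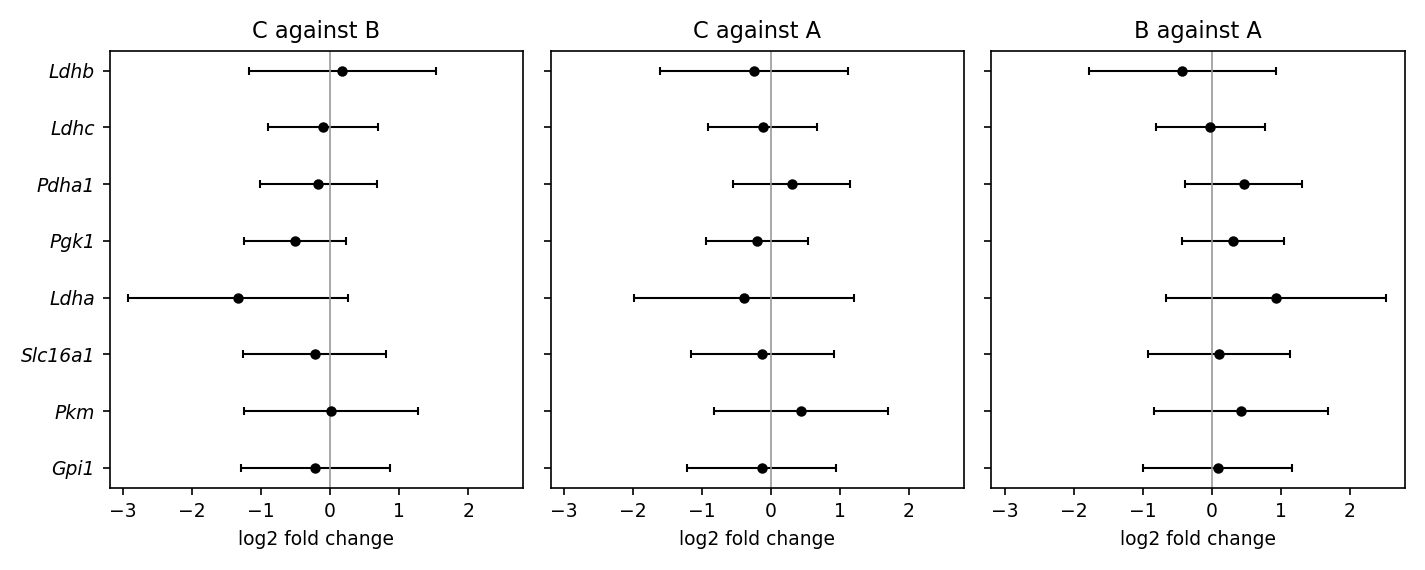
Log2 fold change of the 8 tested genes (horizontal axis, log2(FPKM + 1) scale) in C against B, C against A and B against A, with 95% intervals. All 24 intervals include 0.

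The other genes of these pathways were taken from 6 lists with 82 genes, of which 47 were tested. None passed in any comparison (limma, adjusted p = 1 in C against B and C against A and 0.991 or more in B against A). Without adjustment, p (limma) was below 0.05 for 1 gene higher and 2 lower in C against B. The same held for 1 higher and 0 lower in C against A, and for 0 in B against A. Over all genes the shares in these comparisons were 3.85%, 3.01% and 4.57%. After adjustment limma-voom called 0 of the pathway genes in each. In C against B 25 of the 47 coefficients were above 0, with a median of 0.02. In C against A there were 33, with a median of 0.17, and in B against A 25, with a median of 0.06. Of all 13443 genes, 6705 were above 0 in C against B, with a median of 0. In C against A there were 7599 and in B against A 7413, each with a median of 0.07. Of 22 further glycolysis enzymes, 8 were tested and 8 others had at most 3 reads in any library. Bpgm, which makes 2,3-bisphosphoglycerate, had the highest mean of these, 53.9 ± 25.3 FPKM (SD, n = 6), followed by Pgam1 (15.7), Aldoa (11.5), Pgam2 (4.52) and Tpi1 (3.55). Gapdh, at 1.12 to 3.98 FPKM, is uncertain because it has many processed copies. Of the testis forms, Gapdhs had at most 1 read and Pgk2 at most 5.

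Of 16 genes of the tricarboxylic acid cycle, 14 were tested, led by Idh3g (61.1 FPKM), Mdh2 (60.2), Ogdh (19.3), Cs (14.5) and Sdhd (13.8). All 6 genes of the malate-aspartate shuttle, which moves the electrons of lactate oxidation into mitochondria, were tested, with Got1 (38.2) and Mdh1 (24.2) highest, followed by Slc25a11 (7.08), Slc25a13 (4.69) and Slc25a12 (2.08). Among regulators, Tigar, a fructose-bisphosphatase, had 67.2 ± 22.4 FPKM, and Hif1a (6.27), Fbp1 (2.82), the glucose transporter Slc2a3 (1.71) and G6pc3 (1.32) were lower. Ldhd, the D-lactate dehydrogenase, and Ldhal6b had at most 5 and 3 reads.

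The lowest unadjusted p among these genes in C against B belonged to Tpi1, triosephosphate isomerase, with a log2 fold change of -1.31 ± 0.48 (SE, limma, adjusted p = 1). Tpi1 measured 1.05 and 2.20 FPKM in C1 and C2 and 3.59 and 7.75 FPKM in B1 and B2. Its values rested on 4.5 and 5.5 reads in C1 and C2 and 12.5 and 25.5 reads in B1 and B2. Idh3a and Mdh2, of the tricarboxylic acid cycle, stood at -0.86 ± 0.33 and 0.72 ± 0.29. In C against A these were Pgam2 at 1.78 ± 0.76, G6pc3 at 1.20 ± 0.53 and Mdh1 at 0.84 ± 0.38, and in B against A Slc2a3 at 1.13 ± 0.53, Pgam2 at 1.59 ± 0.76 and Tigar at 0.79 ± 0.38. Pgam2 rested on 0 to 9 reads per library and G6pc3 on 0 to 6.

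**Figure D5:**
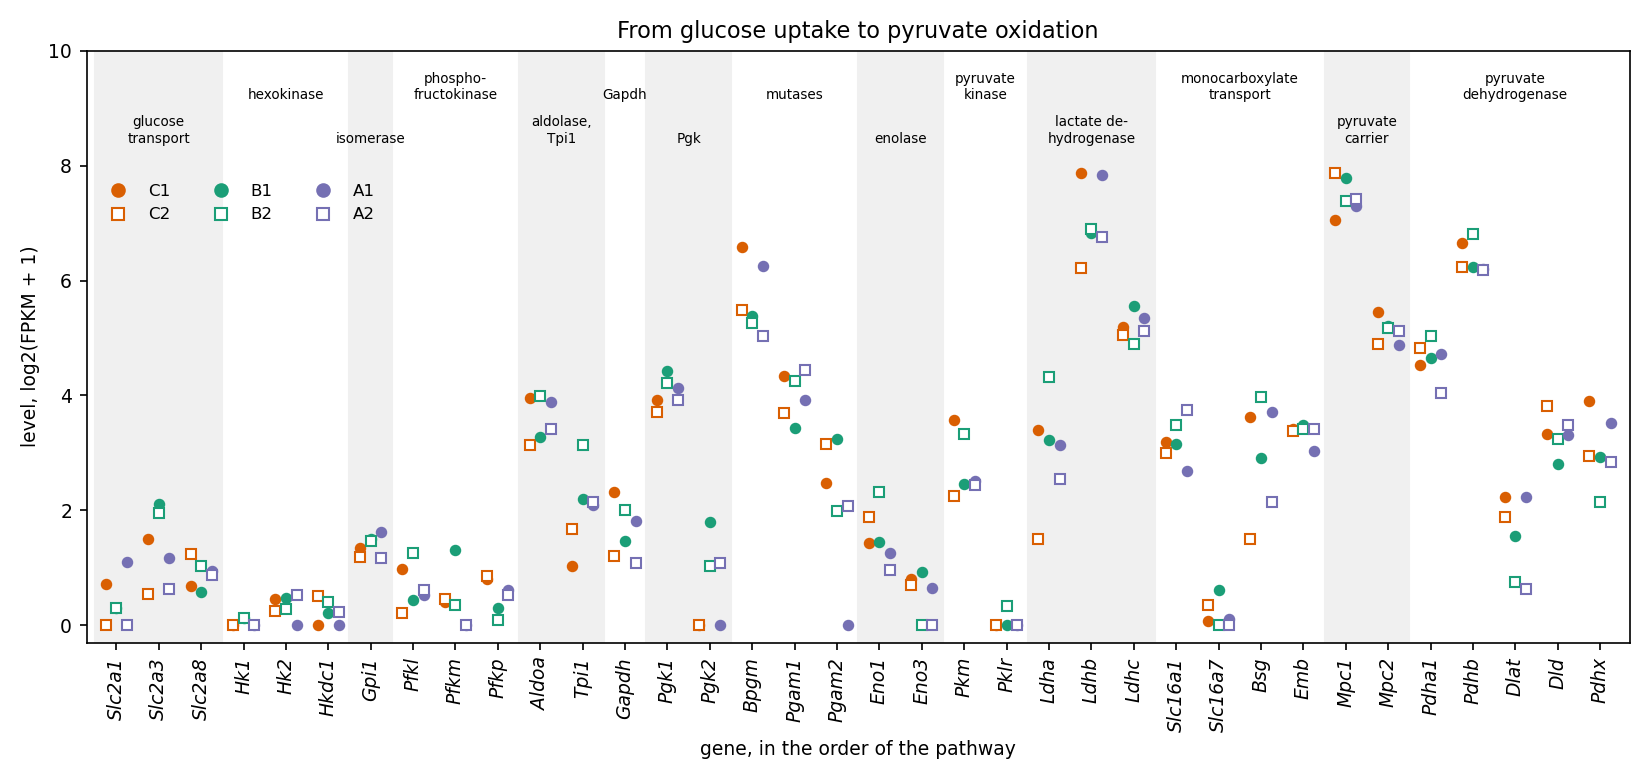
Level as log2(FPKM + 1) on the vertical axis for genes from glucose transport to pyruvate dehydrogenase, in pathway order, with 1 point per library and pairs C, B and A from left to right within a gene. Ldhb, Mpc1 and Pdhb are the highest, and Hk1 and Hk2, at most 0.45 FPKM, are among the lowest.

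Among the 7085 genes that averaged 5 FPKM or more, the profiles most like that of Ldhb over the 6 libraries were those of 4933417C20Rik (r = 0.989), Mgst3 (r = 0.986) and Taf10 (r = 0.984). Each was highest in C1 and A1. For Ldhc they were those of Fam159b (r = 0.997), AC117949.2 (r = 0.995) and Slc22a20 (r = 0.980), each highest in B1. These are Pearson correlations of log2(FPKM + 1) over 6 points that share library depth and the split of C2 and A2, given as a description with no test.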

How the data were processed

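Poly(A) RNA of pools of 5 embryos was sequenced as read pairs of 50 and 25 bases after 13 PCR cycles, per the labels' protocols. Trimmomatic, Trim Galore, cutadapt, STAR, featureCounts and build mm10 are named per the submitters' processing notes, without version, and the annotation and strand setting were not stated. The authors deposited FPKM per gene and a gene length. FPKM times length gave reads up to 1 factor per library. Whole reads (tolerance 0.001 read) made up 55.6% to 57.9% of values above 0 and all were multiples of 0.01 read, so shared reads were counted as fractions. The table has 0 spike-in rows. A single read over 2 kb of gene equals 0.3215 to 0.5511 FPKM. Floors of 3 reads cover counting error only, since molecular identifiers were not used.

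Groups were taken from the pairs of titles and annotation, and 9 further libraries of the series were not analysed here. For the 13443 genes averaging 1 FPKM or more, log2(FPKM + 1) was fitted with limma 3.58.1 (R 4.3.3, variance trend, 1 mean per pair, 6 libraries), with Benjamini-Hochberg adjustment over all tested genes at 0.05. Fold changes are on that log2 scale, which understates low genes. No label ties the pools to separate matings or days, so the p-values reflect only how these pools vary, which may be technical. Sequence windows were compared between GENCODE transcripts (GRCm38) with Biopython 1.88.

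The members and lists were chosen with earlier results of these data known. Genes named besides the 10 are those past the threshold, the 5 highest of each list, the 3 lowest unadjusted p per comparison, family relatives (1 is not reported here), sequence copies and the 3 most alike profiles of Ldhb and Ldhc. The sequence copies other than Pgk1-rs7, Gapdh, Slc16a8, Pdk4 and the sums over isoforms were chosen after their values were seen. Alternatives were a pseudocount of 0.1, no filter, median scaling, a replicate block, limma-voom on the recovered reads, leaving out each library, and leaving out A2 and C2 together.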

Additional observations from a re-analysis of the deposited data

How the results depend on the processing

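Of 192 refitted fold changes of the 8 genes that the setting left free to change, 167 kept their sign, 25 turned and 0 passed. The filter, the replicate block and leaving out a library of the pair not compared cannot change a coefficient and are not counted. Counts of genes called were 0 in each comparison throughout, except 1 in C against B with a pseudocount of 0.1 (Igkv13-87, limma, adjusted p = 0.0342, with 0 reads in both C libraries and 10 in each B library). Median scaling moved the median of all genes in B against A to -0.03, against 0.07 before it, and with that common shift Gpi1, near 0 before, came to -0.01. Without both A2 and C2, values turned for Ldha (0.26), Ldhb (0.05), Pdha1 (-0.18) and Slc16a1 (0.51) in C against A and for Gpi1 (-0.15) in B against A. Leaving out each library in turn gave, in C against B, -0.65 to 1.01 for Ldhb, -0.65 to 0.67 for Pkm, -0.43 to 0.23 for Ldhc and -0.35 to 0.02 for Pdha1. In C against A it gave -1.34 to 0.55 for Ldha, -1.08 to 0.58 for Ldhb, -0.36 to 0.10 for Gpi1, -0.23 to 1.09 for Pkm, -0.04 to 0.64 for Pdha1 and -0.65 to 0.41 for Slc16a1. In B against A it gave -0.96 to 0.11 for Ldhb, -0.35 to 0.32 for Ldhc, -0.15 to 0.31 for Gpi1, -0.01 to 0.85 for Pkm and -0.43 to 0.63 for Slc16a1. Of the 24 fold changes, 9 kept their sign throughout. These were Pgk1 in all 3 comparisons and Ldha in C against B and B against A. The others were Gpi1 and Slc16a1 in C against B, Ldhc in C against A and Pdha1 in B against A. The cause of each turn was not tested.

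With the length of 1 coding transcript, chosen after seeing the data, the Ldhb share in B became 66.1%, and the Ldha share 4.37% in C, 13.4% in B and 5.27% in A. Deviations of the replicates from their pair mean correlated at 0.005 for C and B, 0.203 for C and A and 0.098 for B and A. These values cannot show whether libraries of the same replicate number were handled together. C2 and A2, set apart on principal component 1, carry the same replicate number. With the replicate block 0 genes were called and the smallest adjusted p among the 8 genes was 0.899. Ldha in C2 rested on 5.5 reads and Gpi1 on at most 15.5, so counting error is large in these values.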
